A study of Homo sapiens with 20 samples.

Results

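Aminoacyl-tRNA synthetases join each amino acid to its tRNA, and their transcripts were followed here in human embryonic kidney cells depleted of Dicer, Ago2 or Drosha. The 36 genes were taken by name and not by a cut on measured values, but the list was made with earlier results of these data known. Of these genes, 18 encode cytosolic enzymes, 16 encode mitochondrial enzymes and 2 (GARS1 and KARS1) encode enzymes of both compartments. They are 36 of the 57087 genes with at least 1 matched transcript, and all 36 passed the filter on low counts in both experiments. For mRNA-seq, 3 wt samples (HEK293T cells) were set against 3 shDicer samples (the HEK293 2B line, with a doxycycline-inducible hairpin against Dicer), and both groups had received 3 µg/ml doxycycline for 7 days. For chrRNA-seq, chromatin-bound RNA was sequenced from 8 samples, 2 each of wt, shDicer, shAgo2 and shDrosha, all labelled as HEK293 cells. The shDicer and shAgo2 lines carry inducible hairpins and were grown with 3 µg/ml doxycycline for 72 h, whereas the hairpin against Drosha came in on a transfected plasmid, and whether the wt and shDrosha samples had doxycycline is not given. The methods describe recombinant lines with inducible hairpins, among them a clone that also holds a cassette for tagged Dicer, without saying which of them each shDicer sample came from. The depleted cells of the inducible lines and wt thus differ in cell line as well as in the hairpin, and the effect of the line and of the hairpin cannot be told apart.

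Most synthetases recognise a single amino acid and the tRNAs that decode it (EPRS1 joins the glutamyl and prolyl enzymes in a single chain), and the charged tRNA is carried to the ribosome by an elongation factor. Mitochondria translate their own few messages with a separate set of enzymes, which are encoded in the nucleus and imported. Several cytosolic synthetases sit together in the multi-tRNA synthetase complex, held by scaffold proteins. The transcription factor ATF4, which is made when amino acids run short or the endoplasmic reticulum is stressed, is known to raise a group of cytosolic synthetase genes together with amino acid transporters and enzymes of serine, glycine and cysteine synthesis. It binds a composite C/EBP-ATF element in their promoters.

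Estimated counts totalled 10216430 to 17215978 per mRNA-seq sample and 17484067 to 21553760 per chrRNA-seq sample. Values are given as CPM unless a level per length (TPM, which also takes out transcript length) is named. CPM is the count of a gene scaled to a common library size over the genes that passed the filter on low counts (after TMM scaling). At these depths 3 counts correspond to 0.184 to 0.311 CPM in mRNA-seq and 0.149 to 0.183 CPM in chrRNA-seq, here over all counts matched to genes. This level covers counting error only. The hairpins were checked first. DICER1 mRNA was at 252, 257 and 232 CPM in wt and at 80.6, 94.4 and 88.3 CPM in shDicer. In chromatin RNA, DICER1 was at 119 and 124 CPM in wt and 107 and 108 CPM in shDicer. AGO2 chromatin RNA was at 240.0 and 255 CPM in wt and 162 and 160.0 CPM in shAgo2. DROSHA chromatin RNA was at 146 and 153 CPM in wt and 166 and 148 CPM in the samples labelled shDrosha, so it was not lower there. The paper reports its own checks of the knockdowns, by qRT-PCR on steady-state RNA of its chrRNA-seq samples and by western blot. Steady-state RNA is not what these chromatin libraries measure. Of the genes known for this line, VIM, LIN28B, KRT8 and KRT18 were present in every sample, whereas PAX2 reached no more than 0.162 TPM and NEFM no more than 1.64 TPM in mRNA-seq, and NEFL ran from 1.92 to 74.9 TPM there. Of 6 markers of other cell types, INS was at 0 in every sample, PTPRC, CD68, ALB and MYOD1 did not exceed 1.75 TPM, and COL1A1 was at 0.326 to 0.875 TPM in mRNA-seq but at 10.5 to 19.5 TPM in chrRNA-seq. The labels number the replicates without saying that they came from separate cultures, so the p-values measure the spread between these samples, which may be technical.

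In wt cells the cytosolic synthetases were among the more abundant transcripts, and the mitochondrial ones lay lower. Per length, the 18 cytosolic genes had a median of 43.1 TPM in mRNA-seq (range 1.44 to 186), and the 16 mitochondrial genes had a median of 10.7 TPM (range 0.0406 to 49.8). The top of the order was TARS1 (threonine) at 186 ± 9.86 TPM (SD, n = 3), followed by IARS1 (isoleucine) at 149 ± 5.36 and RARS1 (arginine) at 135 ± 5.81. KARS1 (lysine) stood at 95.6 ± 3.91 TPM and GARS1 (glycine) at 60.3 ± 3.51 TPM. IARS1 and RARS1 were apart by more than their SDs, whereas KARS1 and EPRS1 (93.8 ± 4.2; glutamate and proline) were not. IARS2 (49.8 ± 2.66 TPM) led the mitochondrial group, and PARS2 (proline, 1.42 ± 0.166 TPM), VARS1 (valine, 1.44 ± 0.405 TPM) and VARS2 (0.0406 ± 0.0373 TPM) were lowest. For VARS1 and VARS2 these levels depend on copies of the same transcripts, described further on.

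**Figure D1:**
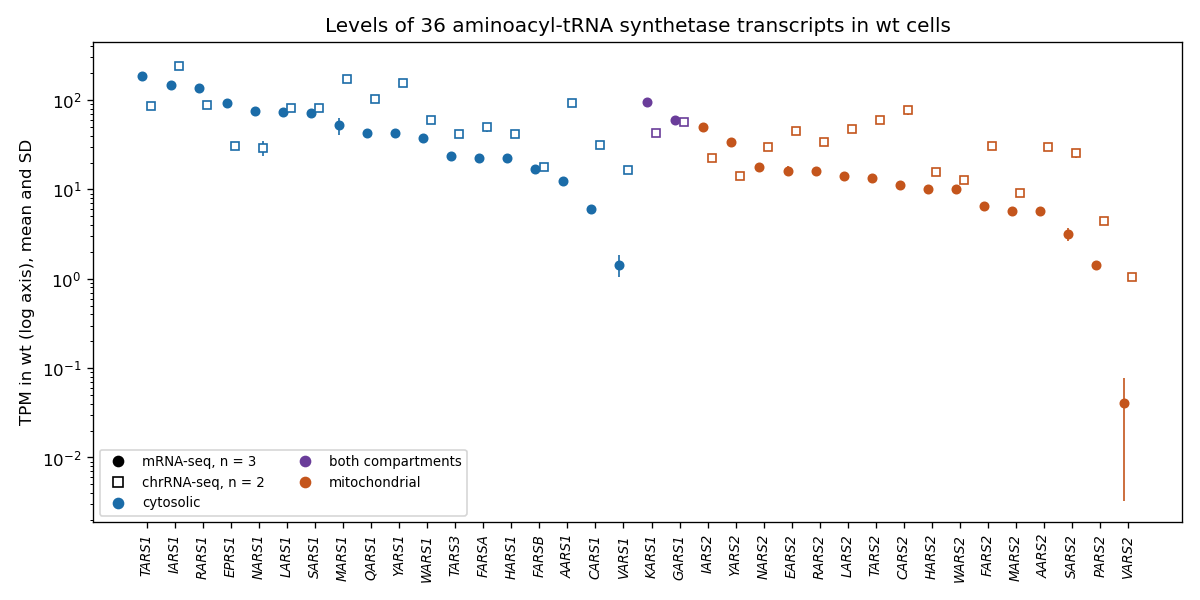
Levels of the 36 synthetase transcripts in wt, as mean TPM and SD on a log axis, with filled circles for mRNA-seq (n = 3), open squares for chrRNA-seq (n = 2) and colours for the compartment. Most cytosolic genes sit above most mitochondrial genes, with medians of 43.1 and 10.7 TPM in mRNA-seq.

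The order differed between the 2 kinds of RNA. In chromatin RNA of wt cells, IARS1 (242 ± 10.1 TPM, SD, n = 2), MARS1 (methionine, 171 ± 8.49), YARS1 (tyrosine, 154 ± 7.30), QARS1 (glutamine, 103 ± 0.182) and AARS1 (alanine, 92.2 ± 0.131) led. AARS1 ranked 25 of 36 in mRNA-seq and 5 of 36 in chromatin RNA, and EPRS1 ranked 5 and 22. TPM is relative to all other RNA of the same library, so only the order within each experiment is comparable. Another difference was in the transcripts that carried the counts: of the counts of the 34 synthetases other than VARS1 and VARS2, 82.1 to 85.1% fell on transcripts annotated as protein-coding in the mRNA-seq samples and 51.9 to 60.7% in the chrRNA-seq samples. The remainder fell on transcripts of other classes of the same genes. LARS2 (mitochondrial, leucine) was the extreme, with 2.75% of its counts on protein-coding transcripts in mRNA-seq of wt.

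Promoters of the synthetases were searched for the element bound by ATF4 with C/EBP factors, written as TGATGNAA and read on both strands, in RefSeq windows from 250 bases before to 50 bases after the start site (GRCh38.p14). Of the 30 synthetases in that table, 8 held it (26.7%), against 4.46% of all 27305 genes, and the names without an entry were AARS2, LARS1, TARS3, VARS1, VARS2 and YARS1. Of the synthetases known as ATF4-induced, 7 of the 10 with a window held it (70.0%), and of the mitochondrial ones 1 of 14 (7.14%). The matched stretches are printed here because the same element recurs with nearly the same letters in genes described later. Each is given on the strand of its gene, 5′ to 3′, with the element in capitals.
TARS1, chr5:33440956-33440985: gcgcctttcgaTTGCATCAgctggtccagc
GARS1, chr7:30594834-30594863: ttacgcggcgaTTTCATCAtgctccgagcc
IARS1, chr9:92293692-92293721: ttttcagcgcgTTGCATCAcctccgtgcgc
CARS1, chr11:3057407-3057436: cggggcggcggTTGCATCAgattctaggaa
MARS1, chr12:57488053-57488082: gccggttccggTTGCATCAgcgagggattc
AARS1, chr16:70289675-70289704: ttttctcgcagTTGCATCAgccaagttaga
NARS1, chr18:57621804-57621833: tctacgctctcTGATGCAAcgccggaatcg
YARS2, chr12:32756076-32756105: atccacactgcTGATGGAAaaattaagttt

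TARS1, GARS1 and MARS1 lie on the plus strand and the other 5 on the minus strand. In TARS1, IARS1, CARS1, MARS1 and AARS1 the letters were identical and on the strand opposite to the gene. A match of letters is a description of these windows and not a bound site.

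The first comparison asked how mature synthetase RNA differed after depletion of Dicer. Tyrosyl and glycyl enzymes had less mRNA in shDicer than in wt, while mitochondrial cysteinyl enzyme had more. Over all their transcripts, mitochondrial leucyl enzyme was lower and cytosolic glutaminyl enzyme higher. Neither of these passed the limit given below on protein-coding transcripts alone. In bulk samples such as these, less of an RNA in each cell and fewer cells with that RNA cannot be told apart. With the study's own limit for these samples (adjusted p under 0.001, edgeR's quasi-likelihood test with Benjamini-Hochberg adjustment over all 15090 genes tested), 9 of the 36 synthetases were lower and 4 were higher. Over all genes, 14.2% were called lower and 15.6% higher (29.8% in either direction). The median log2 fold change of the 36 was -0.15, beside 0.01 over all genes. Among the 18 cytosolic genes 4 fell and 1 rose, both genes of the 2-compartment group fell, and among the 16 mitochondrial genes 3 fell and 3 rose.

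YARS1, which charges tRNA with tyrosine, was at 128, 122 and 138 CPM in wt and at 42.6, 43.9 and 48.9 CPM in shDicer. The groups lay far apart, with a 2.86-fold lower level in shDicer (log2 fold change -1.52 ± 0.0834 SE, edgeR adjusted p = 1.47e-07). The 50 genes that flank YARS1 had a median log2 fold change of -0.57, and YARS1 remained lower once that was taken off (-0.94).

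GARS1, the single gene for cytosolic and mitochondrial glycyl-tRNA synthetase, was at 253, 259 and 240.0 CPM in wt and at 127, 129 and 122 CPM in shDicer. Every shDicer sample was lower than every wt sample, by 1.99-fold between the means (log2 fold change -0.99 ± 0.0666, edgeR adjusted p = 6.09e-07). KARS1, the corresponding gene for lysine, was at 342, 343 and 340.0 CPM in wt and at 213, 232 and 216 CPM in shDicer. It was 1.55-fold lower (log2 fold change -0.63 ± 0.0655, edgeR adjusted p = 1.37e-05), and with the neighbours' median of -0.32 taken off it no longer passed (-0.31, adjusted p = 0.00207).

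LARS2 was at 93.6, 91.4 and 83.8 CPM in wt and at 23.8, 24.2 and 20 CPM in shDicer. This was the lowest log2 fold change of any synthetase, -1.99 ± 0.0987 (edgeR adjusted p = 7.28e-08), but nearly all of these counts came from transcripts that are not annotated as coding. On protein-coding transcripts alone LARS2 did not pass (-1.09, adjusted p = 0.0648). NARS2 (mitochondrial, asparagine) was at 65.7, 61.6 and 66.7 CPM in wt and at 32.5, 37.0 and 36.9 CPM in shDicer, a 1.82-fold lower level (adjusted p = 1.30e-05 with edgeR). CARS1 (cysteine) was at 32.1, 29.0 and 26.2 CPM in wt and at 14.3, 16.8 and 11.9 CPM in shDicer. The groups did not overlap (log2 fold change -1.03 ± 0.144, edgeR adjusted p = 0.000116), and the value was -0.71 when transcripts of the same length without a match were added. Without wt replicate 1, CARS1 did not pass, and neither did it on protein-coding transcripts alone (-1.07, edgeR adjusted p = 0.00664).

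The other synthetases that fell were RARS1 (log2 fold change -0.77), WARS2 (mitochondrial, tryptophan, -0.57) and EPRS1 (-0.55). Without wt replicate 3 EPRS1 lost its call. WARS2 lost its call without any single wt sample and without shDicer replicate 2.

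**Figure D2:**
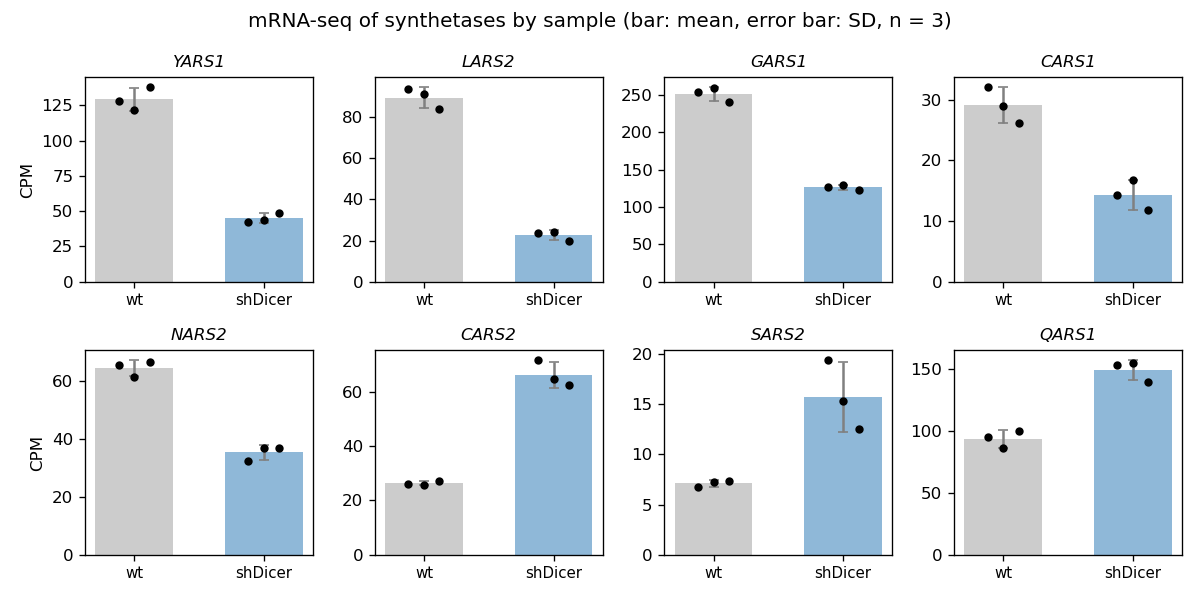
CPM of 8 synthetases in each mRNA-seq sample, with bars for the mean, error bars for the SD (n = 3) and points for the samples of wt and shDicer. YARS1, LARS2, GARS1, CARS1 and NARS2 lie lower in every shDicer sample than in any wt sample, and CARS2, SARS2 and QARS1 lie higher.

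CARS2, the mitochondrial cysteinyl enzyme, went the other way from CARS1. It was at 26.2, 25.8 and 27.3 CPM in wt and at 71.8, 64.7 and 62.4 CPM in shDicer, 2.51-fold higher (log2 fold change 1.33 ± 0.0918, edgeR adjusted p = 7.65e-07). SARS2 (mitochondrial, serine) was at 6.73, 7.20 and 7.37 CPM in wt and at 19.4, 15.3 and 12.5 CPM in shDicer. All shDicer samples were higher (log2 fold change 1.14 ± 0.173, edgeR adjusted p = 0.000211), yet its 50 flanking genes had a median of 0.89, and with that taken off the change was 0.25 (adjusted p = 0.242). SARS2 also shares 43.7% of its 31-base stretches with other annotated genes, a readthrough gene among them, so its counts are uncertain. It passed in 8 of 14 alternatives, and lost its call without any single wt sample and without shDicer replicate 2. QARS1 was at 94.9, 86 and 100 CPM in wt and at 153, 155 and 140.0 CPM in shDicer. Its counts were 1.59-fold higher (log2 fold change 0.67 ± 0.0799, edgeR adjusted p = 3.80e-05). Its level per length, however, was 43.3 ± 4.02 TPM in wt and 43.9 ± 3.97 TPM in shDicer. On counts scaled from TPM QARS1 did not pass (0.31, edgeR adjusted p = 0.0147), nor on protein-coding transcripts (0.63, edgeR adjusted p = 0.00367). The remaining gene called higher was VARS2.

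Some synthetases were described whatever they did. TARS3, the second cytosolic threonyl gene, was at 104, 110 and 103 CPM in wt and at 90.3, 105 and 98.5 CPM in shDicer. The groups overlapped (log2 fold change -0.11 ± 0.0760, edgeR adjusted p = 0.251), and TARS3 did not pass in any other comparison either. In chromatin RNA it was at 71.7 and 77.3 CPM in wt, 78.7 and 82.5 CPM in shDicer, 73.4 and 70.1 CPM in shAgo2 and 70.9 and 63.9 CPM in shDrosha (0.11, -0.05 and -0.15). HARS1 and HARS2, the cytosolic and mitochondrial histidyl genes, stand head to head on chr5, start at positions 140691537 (minus strand) and 140691430 (plus strand) and overlap by 108 bases. HARS1 was at 82.8, 78.4 and 72.5 CPM in wt and at 90, 95.2 and 88.3 CPM in shDicer (log2 fold change 0.23, edgeR adjusted p = 0.0265). HARS2 was at 38.1, 35.8 and 40.9 CPM in wt and at 40.6, 35.6 and 43.0 CPM in shDicer (0.06, adjusted p = 0.670). In chromatin RNA HARS1 was at 124 and 127 CPM in wt, 124 and 121 CPM in shDicer, 97.9 and 112 CPM in shAgo2 and 105 and 110 CPM in shDrosha. HARS2 was at 37.3 and 34.7 CPM in wt, 39.6 and 39.7 CPM in shDicer, 38.3 and 40.8 CPM in shAgo2 and 33.7 and 28.4 CPM in shDrosha. Neither passed here or in any chromatin comparison.

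The second comparison took the same depletion to RNA on chromatin. In shDicer chromatin RNA, 14 of the 36 synthetases were lower than in wt and 2 were higher, with the study's limit of an adjusted p under 0.005 over 32874 genes. Of all genes, 10.5% were lower and 11.0% higher (21.6% in either direction). The median log2 fold change was -0.27 over the synthetases and 0.01 over all genes. By compartment, 6 of 18 cytosolic genes, both genes of the 2-compartment group and 6 of 16 mitochondrial genes fell. Of the 9 genes lower in mRNA and the 14 lower in chromatin RNA, 7 were on both lists: CARS1, GARS1, KARS1, LARS2, NARS2, RARS1 and YARS1. The share of all genes lower in both is not given here, so this overlap has no background beside it. The 2 experiments share no sample. The sign of the change was the same in both for 28 of 36 synthetases (77.8%), beside 72.9% of the 14950 genes tested in both.

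YARS1 chromatin RNA was at 340.0 and 339 CPM in wt and at 157 and 151 CPM in shDicer. It was 2.20-fold lower (log2 fold change -1.14 ± 0.0716, edgeR adjusted p = 2.79e-07), with a neighbour median of -0.46. GARS1 was at 93.1 and 102 CPM in wt and at 43.4 and 54.4 CPM in shDicer. The change of -1.0 ± 0.129 (edgeR adjusted p = 8.42e-05) stood beside a neighbour median of 0.05. KARS1 was at 78.6 and 84.4 CPM in wt and at 44.7 and 51.3 CPM in shDicer (log2 fold change -0.76 ± 0.0969, edgeR adjusted p = 7.06e-05). Both genes of the 2-compartment group were thus lower in every shDicer sample of either RNA than in any wt sample of the same RNA.

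LARS2 was at 141 and 151 CPM in wt and at 67.9 and 73.8 CPM in shDicer. Its log2 fold change was -1.05 ± 0.112 (edgeR adjusted p = 1.87e-05), and -0.36 on protein-coding transcripts (adjusted p = 0.286). IARS1 was at 558 and 619 CPM in wt and at 286 and 354 CPM in shDicer. The groups were apart (log2 fold change -0.88 ± 0.125, edgeR adjusted p = 0.000168), but the 50 genes around IARS1 had a median of -0.67, and with that taken off IARS1 did not pass (-0.21, adjusted p = 0.231).

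Further down the list of genes that fell were MARS2 (-0.74), SARS1 (-0.64), AARS1 (-0.61), NARS2 (-0.60), EARS2 (-0.57), RARS1 (-0.55), AARS2 (-0.46), CARS1 (-0.41) and FARS2 (-0.40). FARS2 passed in only 3 of 13 alternatives and was lost with DESeq2, with the replicate block and without any single wt or shDicer sample. CARS1 passed in 8 of 13, and with its neighbours' median taken off it was at 0.12. On protein-coding transcripts alone CARS1, SARS1 and FARS2 did not pass. Without wt replicate 2 the number lower went from 14 to 7. YARS1, GARS1, KARS1 and EARS2 passed under every alternative that was run. Besides VARS2, SARS2 was called higher, at 26.8 and 23.9 CPM in wt and 39.4 and 31.9 CPM in shDicer (log2 fold change 0.49), next to a median of 0.48 for its neighbours. SARS2 passed in only 4 of 13 alternatives and was lost with DESeq2 and with the replicate block. CARS2, higher in mRNA, was at 118 and 114 CPM in wt and 148 and 139 CPM in shDicer, just outside the limit (0.31, edgeR adjusted p = 0.00543).

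**Figure D3:**
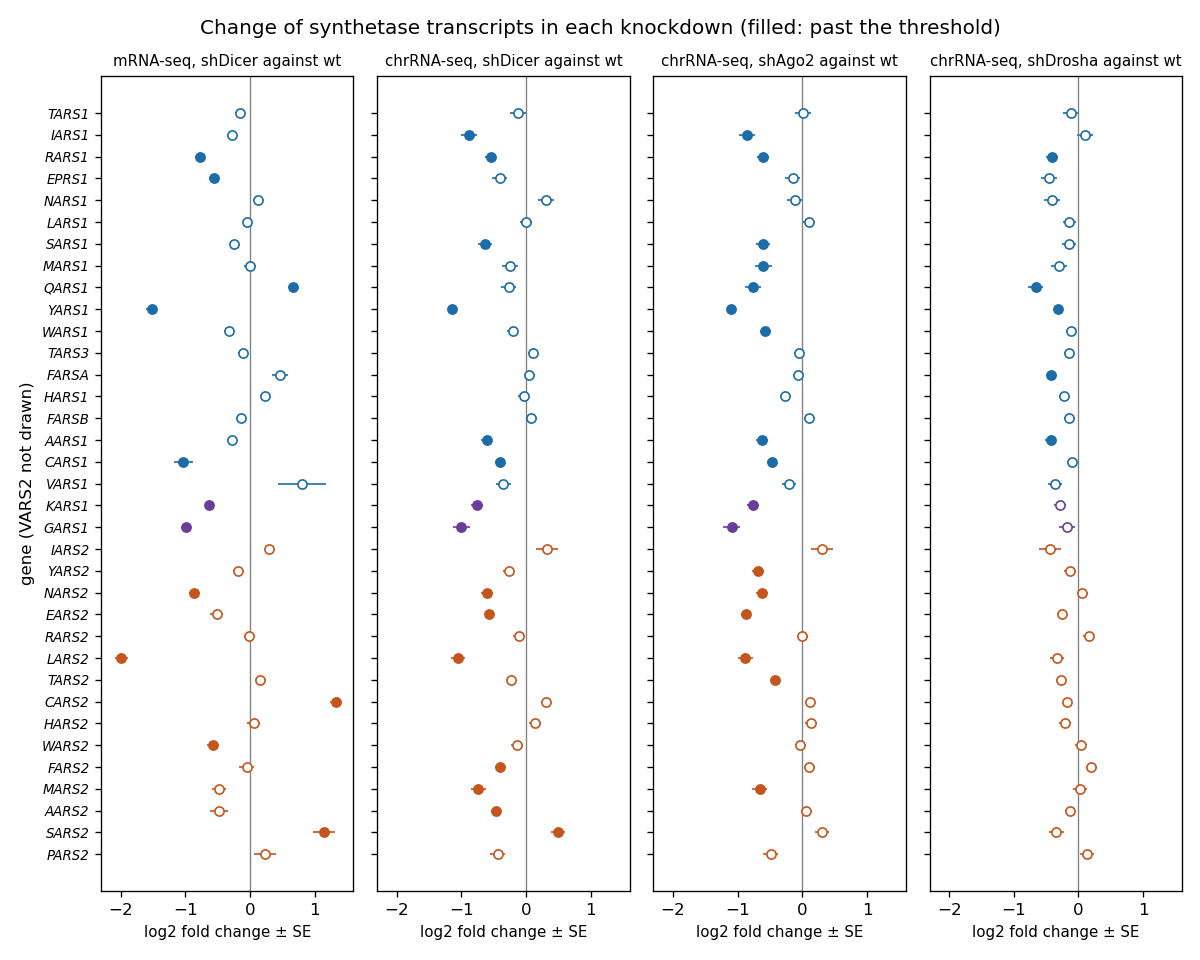
Log2 fold change against wt with its SE for 35 synthetases in 4 comparisons, coloured by compartment and filled where the comparison's limit was passed; VARS2 is left out because its counts move between copies of its transcript. YARS1, GARS1, KARS1 and LARS2 lie left of zero in all 4 panels, and fewer points are filled for shDrosha than for the other groups.

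Depletion of Ago2 gave the third comparison, against the same 2 wt samples, so its values are set beside those of shDicer and no overlap is counted. In shAgo2, 17 of the 36 synthetases were lower and 1 (VARS2) was higher. Over all genes, 12.1% were lower and 12.5% higher (24.5% in either direction). The median was -0.34 for the synthetases and 0.00 for all genes. The genes that fell numbered 9 of 18 cytosolic, both of the 2-compartment group and 6 of 16 mitochondrial. In the multi-tRNA synthetase complex 5 of 7 members were lower, with a median of -0.61, and in shDicer chromatin RNA 3 of 7 were, with a median of -0.41.

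YARS1 was at 159 CPM in both shAgo2 samples (log2 fold change -1.10 ± 0.0715, edgeR adjusted p = 2.97e-07). GARS1 was at 43.8 and 48.1 CPM (-1.09 ± 0.130, edgeR adjusted p = 3.73e-05). LARS2 was at 76.6 and 82.7 CPM (-0.88 ± 0.111, edgeR adjusted p = 5.75e-05) but did not pass on protein-coding transcripts (-0.89, edgeR adjusted p = 0.019). In these 3 genes each shAgo2 sample lay below both wt samples by more than the range of either group.

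EARS2, the mitochondrial glutamyl enzyme, was at 89.4 and 90.1 CPM in wt, at 47.0 and 51.1 CPM in shAgo2 and at 60.2 and 60.4 CPM in shDicer. Its change in shAgo2 was -0.87 ± 0.0741 (edgeR adjusted p = 2.51e-06), with neighbours at -0.38. IARS1 was at 323 and 329 CPM in shAgo2 (-0.85 ± 0.125, edgeR adjusted p = 0.000183), with neighbours at -0.57, and lost its call with that taken off. KARS1 was at 47.3 and 49.0 CPM (log2 fold change -0.76, edgeR adjusted p = 6.16e-05).

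QARS1, higher in shDicer mRNA, was at 99.3 and 102 CPM in shAgo2 chromatin RNA against 163 and 178 CPM in wt (-0.76 ± 0.118, edgeR adjusted p = 0.000284). It did not pass with the neighbours' median of -0.45 taken off. YARS2 (mitochondrial, tyrosine) was at 47.0 and 51.5 CPM in wt and 30.5 and 30.3 CPM in shAgo2 (log2 fold change -0.69). Others that fell were MARS2 (-0.66), AARS1 (-0.62), NARS2 (-0.62), RARS1 (-0.61), SARS1 (-0.61), MARS1 (-0.60), WARS1 (tryptophan, -0.57), CARS1 (-0.47) and TARS2 (-0.42). MARS1 passed in 6 of 13 alternatives (-0.11 with its neighbours' median taken off), SARS1 in 7, CARS1 in 8 (0.13 with its neighbours' median taken off) and TARS2 in 8. Of these, MARS1, SARS1 and CARS1 did not pass on protein-coding transcripts alone. Without wt replicate 2, or without shAgo2 replicate 1, the number lower was 11.

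Compared directly, shDicer and shAgo2 chromatin RNA differed in 2 synthetases, both mitochondrial and both lower in shDicer, at an adjusted p under 0.005, and 0 were higher in shDicer with edgeR (9 at an unadjusted p under 0.05, and 1 with DESeq2). Over all genes, 1.34% were lower and 1.37% higher in shDicer than in shAgo2 (2.71% in either direction). AARS2 (alanine) was at 127 and 114 CPM in shDicer, 170.0 and 174 CPM in shAgo2 and 163 and 168 CPM in wt (log2 difference -0.51 ± 0.0779, edgeR adjusted p = 0.00200). FARS2 (phenylalanine) was at 35.4 and 38.5 CPM in shDicer, 49.7 and 55.8 CPM in shAgo2 and 48.9 and 48.5 CPM in wt (-0.51 ± 0.0853, edgeR adjusted p = 0.00321). Both genes are on chr6, where their neighbours differed by -0.34 and -0.29. With each knockdown's own neighbour median against wt taken off, the differences were -0.12 for AARS2 and -0.15 for FARS2, and neither passed. For the other synthetases, the log2 differences between these knockdowns ran from -0.25 (EPRS1) to 0.49 (QARS1, edgeR adjusted p = 0.0215).

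The samples labelled shDrosha showed few changes at the study's looser limit of an adjusted p under 0.05. Of the 36 synthetases 5 were lower, all cytosolic, and 0 were higher with edgeR (1, FARS2, at an unadjusted p under 0.05, and 0 with DESeq2), whereas 2.18% of all genes were lower and 1.19% higher (3.38% in either direction). The median was -0.17 for the synthetases and 0.00 for all genes. QARS1 was at 163 and 178 CPM in wt and at 124 and 91.8 CPM in shDrosha (log2 fold change -0.66 ± 0.118, edgeR adjusted p = 0.0132). AARS1 was at 300.0 and 314 CPM in wt and 248 and 208 CPM in shDrosha (-0.43, edgeR adjusted p = 0.0250). FARSA, a subunit of the phenylalanyl enzyme, was at 100 and 99.1 CPM in wt and 78.7 and 70.4 CPM in shDrosha (-0.42). Its partner subunit FARSB was at 93.6 and 102 CPM in wt and 89.6 and 88.2 CPM in shDrosha and did not pass (-0.14).

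RARS1 was at 101 CPM in both wt samples and at 83.1 and 68.7 CPM in shDrosha (-0.41), and YARS1 was at 340.0 and 339 CPM in wt and 272 and 277 CPM in shDrosha (-0.31, edgeR adjusted p = 0.0381). For all 5 genes the groups did not overlap, but the same held for genes that did not pass, such as HARS1, KARS1, TARS3 and WARS1. It does not set the 5 apart. GARS1 was at 97.1 and 75.1 CPM in shDrosha (-0.18, edgeR adjusted p = 0.485) and KARS1 at 71.9 and 61.2 CPM (-0.29, edgeR adjusted p = 0.116), and neither passed. Replicate 2 of shDrosha was the lower in 4 of the 5. The calls did not hold when either wt sample was left out, and most were lost without shDrosha replicate 2. DROSHA chromatin RNA was not lower in these samples, whereas the paper checked the knockdown in steady-state RNA and protein.

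The levels were also summed over the genes of each compartment. The 18 cytosolic genes together took 4897 to 5007 CPM in wt mRNA and 3976 to 4394 CPM in shDicer mRNA, and in chromatin RNA 3085 and 3262 CPM in wt, 2227 and 2524 CPM in shDicer, 2261 and 2302 CPM in shAgo2 and 2962 and 2523 CPM in shDrosha. The sum of GARS1 and KARS1 was 581 to 602 CPM in wt mRNA and 339 to 361 CPM in shDicer mRNA. The 16 mitochondrial genes together had 943 to 974 CPM in wt mRNA and 921 to 960 CPM in shDicer mRNA, ranges that overlapped. In chromatin RNA they had 1058 and 1102 CPM in wt, 942 and 954 CPM in shDicer, 971 and 976 CPM in shAgo2 and 1020 and 926 CPM in shDrosha, lower than wt without overlap in each. For GARS1 and KARS1 together the chromatin sums were 172 and 186 CPM in wt, 88.1 and 106 CPM in shDicer, 91.0 and 97.1 CPM in shAgo2 and 169 and 136 CPM in shDrosha. The sums are led by the genes with most counts, IARS1 above all. The mitochondrial sums include VARS2, whose uncertain counts are described further on. It was at no more than 0.102 CPM in wt mRNA and at 8.25 to 33.7 CPM in shDicer mRNA. In chromatin RNA it was at 1.54 and 1.33 CPM in wt, 48.5 and 39.0 CPM in shDicer and 41.6 and 43.2 CPM in shAgo2.

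Neighbouring genes were used as a local reference, because the lines differ and stretches of a chromosome can shift together. The median shift of the 50 flanking genes, taken over the 36 synthetases, was 0.05 in shDicer mRNA, -0.01 in shDicer chromatin RNA and -0.04 in shAgo2 chromatin RNA, against medians of -0.15, -0.27 and -0.34 for the synthetases. With each gene's neighbour median taken off, 13, 11 and 14 synthetases were lower in these 3 comparisons, and 4, 1 and 1 were higher. The share of all genes called in that fit is not given here, so these counts have no background beside them. YARS1, IARS1, AARS1, QARS1 and CARS1 stood in stretches that were lower in chromatin RNA of both knockdowns. GARS1, LARS2 and KARS1 did not, with neighbour medians between -0.16 and 0.05 in chromatin RNA.

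The counts of VARS2, VARS1 and CARS1 need separate treatment, because alternative versions of their chromosome regions in the genome assembly hold over 0.5 of their 31-base stretches (5, 5 and 1 such versions, and 0 for each of the other 33 synthetases). VARS2 also shares 62.5% of its 31-base stretches with other annotated genes, so its counts are uncertain for that reason too. VARS2, the mitochondrial valyl enzyme on chr6, was listed at 0, 0.0889 and 0.102 CPM in wt mRNA and at 33.7, 8.25 and 15.3 CPM in shDicer mRNA, and at 1.54 and 1.33 CPM in wt chromatin RNA against 48.5 and 39.0 CPM in shDicer and 41.6 and 43.2 CPM in shAgo2. Since the wt mRNA values are below 3 counts, no fold is given for them. Its 4073-base transcript had 0 counts in every wt and every shDrosha sample. Of the 4 unmatched transcripts of exactly that length, 2 had identical counts and carried nearly all of them in wt and shDrosha, and 1 repeated the counts of the matched transcript in every sample, so that sums over these transcripts count both pairs in duplicate.

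Added together, and per total of all estimated counts, these 4073-base transcripts were at 5.93, 5.0 and 4.04 CPM in wt mRNA and 21.8, 7.70 and 19.2 in shDicer mRNA. In chromatin RNA the sums were 23.2 and 18.8 in wt, 37.8 and 32.8 in shDicer, 36.1 and 31.4 in shAgo2 and 24.2 and 21.8 in shDrosha. The on and off pattern thus became a smaller difference in these sums. With the unmatched transcripts added, the gene's log2 fold change was 2.36 in mRNA, and 1.39 and 1.33 in chromatin RNA of shDicer and shAgo2. Each was still past its limit. That fit kept all matched VARS2 transcripts but added unmatched ones of this length only. Unmatched transcripts of other lengths were not added, so these values cannot tell whether VARS2 as a whole differed. The unmatched transcripts were linked to VARS2 by length alone, and whether they are its copies was not tested by sequence.

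**Figure D4:**
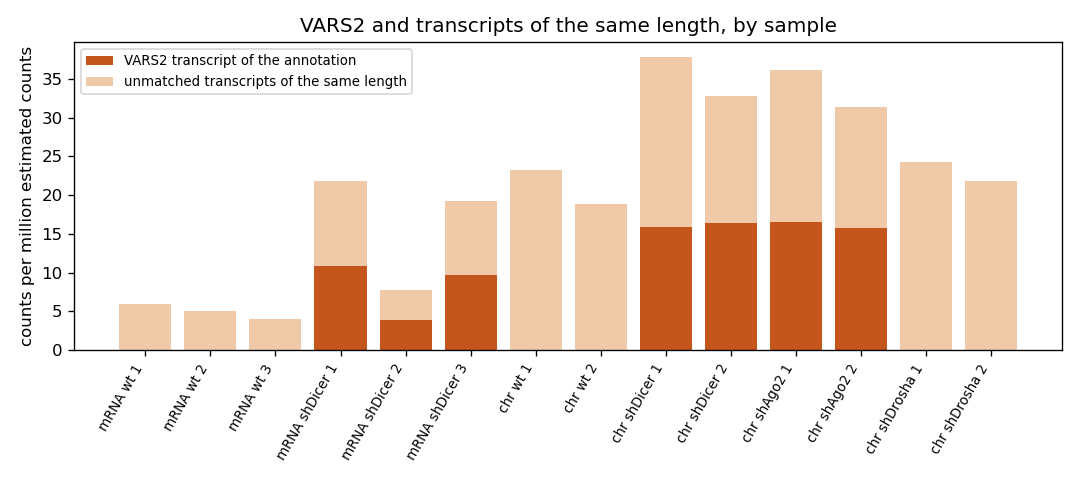
CPM, here per total of all estimated counts, of the 4073-base VARS2 transcript (dark) and for the 4 unmatched transcripts of the same length (light), stacked for each of the 14 samples. The dark part is at 0 in all wt and shDrosha samples and between 3.85 and 16.5 in shDicer and shAgo2, while the light part is present in every sample.

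In the surrounding region of chr6, that of the major histocompatibility complex, 18.0% of 189 genes differed by more than 3 on the log2 scale in shDicer chromatin RNA, beside 1.88% of genes elsewhere. In shAgo2 the shares were 20.6% and 1.92%, and in shDrosha 1.06% and 0.266%. VARS1, the cytosolic valyl gene in the same region, was at 2.59, 1.42 and 3.48 CPM in wt mRNA and at 4.39, 2.42 and 6.08 CPM in shDicer mRNA, and the groups overlapped. Its 4312-base transcript and 2 unmatched ones had identical counts in every sample. For CARS1 on chr11, values by transcript are again per total of all estimated counts. The 2491-base transcript was at 17.0, 13.9 and 8.16 CPM in wt mRNA and at 7.25, 7.62 and 6.07 in shDicer. With 2 unmatched transcripts of that length the sums were 29.3, 20.9 and 25.6 against 17.3, 17.8 and 17.9. Leaving these 3 genes out, 8 of 33 synthetases were lower and 3 higher in shDicer mRNA, 13 lower and 1 higher in shDicer chromatin RNA, 16 lower and 0 higher in shAgo2 (1 higher at an unadjusted p under 0.05 with edgeR, SARS2, and 0 with DESeq2), and 5 lower in shDrosha.

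The list of synthetases known as ATF4-induced came from general knowledge of that pathway, and was made with earlier results of these data known. It gave 0 higher calls in any comparison with wt, by edgeR or by DESeq2 (1, NARS1 in shDicer chromatin RNA, had an unadjusted p under 0.05 and a positive change). Of the 12 in it, 4 were lower in shDicer mRNA (YARS1, CARS1, GARS1 and EPRS1), 6 in shDicer chromatin RNA, 8 in shAgo2 and 2 in shDrosha. The shares of all genes called lower were 14.2%, 10.5%, 12.1% and 2.18%, and those called higher 15.6%, 11.0%, 12.5% and 1.19%. The medians of the 12 were -0.27, -0.41, -0.58 and -0.16. Those 7 of the 12 whose promoter windows are printed above had medians of -0.27, -0.41, -0.60 and -0.18, with 2, 4, 5 and 1 called lower. The promoter of YARS1 was not among the windows searched.

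Other genes that ATF4 is known to raise were counted in the same way. In shDicer mRNA, 10 of 29 were lower and 3 higher, beside 14.2% and 15.6% of all genes. CBS, the first enzyme of cysteine synthesis from homocysteine, had the lowest value (log2 fold change -3.16) but has a near-identical copy and is uncertain. SLC7A5, the leucine transporter, was at 30.0 ± 4.41 CPM in wt and 4.93 ± 1.86 CPM in shDicer (SD, n = 3; -2.59, edgeR adjusted p = 4.58e-06), and SLC7A11, the cystine transporter, fell by 1.70 on the log2 scale. ATF4 itself is named outside the rule of 3 genes a direction, and other genes of the list fell further. It was at 711 ± 23.8 CPM in wt and 381 ± 25.2 CPM in shDicer (-0.90, edgeR adjusted p = 2.13e-06). VLDLR (1.45), TRIB3 (1.01) and SHMT2 (0.56) rose. In chromatin RNA, 9 of 30 were lower and 2 higher in shDicer, 12 lower and 1 higher in shAgo2, and 5 lower and 1 higher in shDrosha. The shares of all genes lower and higher were 10.5% and 11.0% in shDicer, 12.1% and 12.5% in shAgo2, and 2.18% and 1.19% in shDrosha. SLC7A5 was lower in all 3 (-1.76, -1.80 and -0.49). ATF3, a stress-induced factor, was higher in shAgo2 (0.87) and in shDrosha (1.27).

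Proteins that work beside the synthetases were counted next. Of the 3 complex scaffolds and cofactors, AIMP1 (-0.74) and AIMP2 (-0.53) were lower in shDicer mRNA, 0 of 3 passed in shDicer chromatin RNA with edgeR or DESeq2 (2 were lower at an unadjusted p under 0.05), and AIMP2 was lower in shAgo2 (-0.52). Next came 7 genes, most of which edit mischarged tRNA or make mitochondrial glutaminyl-tRNA (MTFMT does neither). Of these, GATB and GATC, subunits of the mitochondrial amidotransferase, were lower in shDicer mRNA (-0.73 and -0.66). GATB was also lower in chromatin RNA of shDicer and of shAgo2 (-0.68 in each), and AARSD1, which clears mischarged tRNA, was lower in shAgo2 (-0.40). Among all genes, 14.2% were called lower in shDicer mRNA, 10.5% in shDicer chromatin RNA and 12.1% in shAgo2.

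Of the 10 elongation factors, EEF1A2 (1.46), EEF2 (1.22) and EEF1A1 (0.39) were higher in shDicer mRNA and GFM1, the mitochondrial translocation factor, was lower (-0.89). In chromatin RNA 0 were higher in any comparison with wt, by edgeR or DESeq2 or at an unadjusted p under 0.05. There, 3 were lower in shDicer (EEF1G -0.87, EEF1D -0.82 and GFM1 -0.76), 2 in shAgo2 (EEF1D -1.07 and GFM1 -0.74) and 3 in shDrosha (EEF2 -0.96, EEF1A1 -0.83 and EEF1D -0.45). The shares of all genes higher and lower were 15.6% and 14.2% in shDicer mRNA. In chromatin RNA they were 11.0% and 10.5% in shDicer, 12.5% and 12.1% in shAgo2, and 1.19% and 2.18% in shDrosha. EEF1A1, which brings charged tRNA to the ribosome, and EEF2 have processed copies elsewhere in the genome that may share their counts.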

How the data were processed

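The authors quantified reads with kallisto against Ensembl 89 cDNA and non-coding transcripts and deposited, per transcript and sample, estimated counts, TPM and effective length. Introns were not in the index. Libraries are labelled polyA RNA for mRNA-seq, whereas the methods state ribosomal depletion. The 6 small RNA samples were not analysed here. Of 217082 transcripts, 193697 (89.2%; 93.4 to 94.8% of counts) were matched by identifier to GENCODE 44 genes (GRCh38), summed per gene and rounded. edgeR 4.0.16 (R 4.3.3) fitted quasi-likelihood models to all genes past filterByExpr with TMM scaling: 3 wt and 3 shDicer mRNA samples, and all 8 chrRNA samples together. The limits on the adjusted p (0.001, 0.005, 0.005 and 0.05) are those of the study, which used DESeq2; DESeq2 1.42.0 was an alternative. Deposited TPM was summed per gene for levels. The test was tried on simulated counts first. Values in every sample are given for up to 5 rising and 5 falling synthetases per comparison with wt, GARS1, KARS1, TARS3, HARS1 and HARS2 in any case, and up to 3 genes a direction and comparison of each related list are named. ATF4 in shDicer mRNA is named beyond that limit. The members and lists were chosen with earlier results of these data known.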

Additional observations from a re-analysis of the deposited data

Results flagged for a closer look

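AARS2 and FARS2 differed between the knockdowns in the direct test of shDicer against shAgo2 chromatin RNA. The log2 difference was -0.51 for AARS2 (edgeR adjusted p = 0.00200) and -0.51 for FARS2 (edgeR adjusted p = 0.00321), and both were lower in the 2 shDicer samples than in the 2 shAgo2 samples without overlap. Over the alternatives run for each gene, the differences lay between -0.59 and -0.12 for AARS2 and between -0.60 and -0.15 for FARS2, with adjusted p up to 0.398 and 0.351.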

How the results depend on the processing

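Counts of synthetases called were recomputed under each alternative, and the cause of each shift was not tested. In shDicer mRNA, 4 higher became 2 on counts scaled from TPM and 7 at an adjusted p under 0.05, and 9 lower became 16 at that limit. Leaving out 1 sample gave 3 to 5 higher and 7 to 10 lower. In shDicer chromatin RNA, 2 higher became 1 with DESeq2, with the replicate block, on counts scaled from TPM, on protein-coding transcripts, with the neighbour median as offset, with only the 2 groups in the fit, with an absolute log2 fold change above 0.5 and without CARS1, VARS1 and VARS2. Leaving out 1 sample gave 1 to 2 higher and 7 to 13 lower, with 7 without wt replicate 2. In shAgo2, 1 higher became 2 at 0.05 and 0 without those 3 genes, and leaving out 1 sample gave 11 to 14 lower. In shDrosha, 5 lower became 1 with the block, 1 on counts scaled from TPM, 3 with the neighbour offset and 1 above 0.5, and leaving out 1 sample gave 0 to 6. Between shDicer and shAgo2, 0 higher became 1 with DESeq2, without the filter, on counts scaled from TPM and with 2 groups, and 4 at 0.05. There, 2 lower became 0 with the block, on counts scaled from TPM, on protein-coding transcripts and with the neighbour offset, and 1 with 2 groups, and leaving out 1 sample gave 0 to 1.

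With the neighbour median as offset, NARS1 turned to -0.57 in shDicer mRNA, LARS1 to -0.51 and CARS1 to 0.12 in shDicer chromatin RNA, and CARS1 to 0.13, RARS2 to -0.39 and TARS1 to -0.60 in shAgo2.

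The replicate numbers were not taken to pair samples: deviations of equally numbered wt and shDicer mRNA samples correlated at 0.0976, 0.0532 and 0.221, and those of chromatin wt with shDicer, shAgo2 and shDrosha at 0.192, 0.0643 and -0.252. The replicate block gave 4 higher and 10 lower in shDicer mRNA, 13 lower in shDicer chromatin RNA and 1 higher and 16 lower in shAgo2. With shDrosha numbers exchanged, a pairing added after seeing the data, 13 were lower. The additions of unmatched transcripts and the counts without CARS1, VARS1 and VARS2 were also chosen after seeing the data. Depth limits VARS2 in mRNA-seq, whose wt values are below the level of 3 counts.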
